A study of Mus musculus with 12 samples.

Results

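The 10 genes Fos, Fosb, Jun, Junb, Egr1, Nr4a1, Dusp1, Dusp2, Btg2 and Ier2 are immediate early genes, and each was found by its symbol as 1 row among the 26609 genes of the count table. All 10 passed the filter on low counts, which kept 13692 genes for testing. RNA-seq measured the transcripts of regulatory T cells (Tregs), which flow cytometry had gated as single CD4+CD25hiCD127lo cells. They came from the mesenteric lymph nodes of mice of the SAMP/YitFC line, which develops ileitis without any trigger. Mice were untreated, and RNA was taken right after the sort. There were 3 libraries in each of 4 groups: females without estrogen receptor beta (SAMP-ERb-KO, called KO below), KO males, wild-type (SAMP-WT) females and WT males. The KO is described as global, so it is not limited to T cells. The labels give neither the age of the mice nor whether each library came from its own mouse, so the p-values speak only to the spread among these libraries, which may be technical.

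Immediate early genes are switched on within minutes of a signal at the cell surface and need no new protein for it. In T cells, the antigen receptor (TCR) reaches them through calcium and the kinase ERK, and the same genes respond when cells are handled, as in making cell suspensions and sorting. Fos, FosB, Jun and JunB pair up as the transcription factor AP-1. Egr1 is a zinc finger factor downstream of ERK, and Nr4a1 (Nur77) is an orphan nuclear receptor whose reporter alleles are used to read TCR signal strength. Dusp1 and Dusp2 are phosphatases that switch MAP kinases off, Btg2 restrains proliferation, and Ier2 is a small nuclear protein of the same early wave.

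The promoters of 4 members are shown because the first 3 genes were low in the same libraries while Nr4a1 was not. Each run is the 250 bases before the start of transcription in RefSeq (GRCm38.p6), 5′ to 3′ on the gene's strand. Capitals mark TGACG on either strand (CGTCA when read on the other), the core that CREB and ATF proteins bind, or TGACATCA, a Jun/ATF element.
Fos, chr12:85473640-85473889, plus strand: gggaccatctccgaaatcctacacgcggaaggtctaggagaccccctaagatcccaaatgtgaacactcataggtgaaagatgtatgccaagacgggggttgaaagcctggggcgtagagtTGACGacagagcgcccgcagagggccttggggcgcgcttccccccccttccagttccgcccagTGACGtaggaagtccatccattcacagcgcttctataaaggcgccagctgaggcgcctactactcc
Jun, chr4:95052223-95052472, minus strand: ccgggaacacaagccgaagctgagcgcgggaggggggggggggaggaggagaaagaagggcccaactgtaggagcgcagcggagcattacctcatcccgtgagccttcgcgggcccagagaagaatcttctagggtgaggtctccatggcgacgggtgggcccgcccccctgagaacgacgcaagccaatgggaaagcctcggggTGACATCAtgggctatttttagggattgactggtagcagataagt
Dusp1, chr17:26508473-26508722, minus strand: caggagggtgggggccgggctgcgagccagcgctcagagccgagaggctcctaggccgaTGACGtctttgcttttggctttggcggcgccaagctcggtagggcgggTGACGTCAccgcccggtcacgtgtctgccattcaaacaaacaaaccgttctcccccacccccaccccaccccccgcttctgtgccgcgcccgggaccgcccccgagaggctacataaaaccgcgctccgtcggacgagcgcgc
Nr4a1, chr15:101266596-101266845, plus strand: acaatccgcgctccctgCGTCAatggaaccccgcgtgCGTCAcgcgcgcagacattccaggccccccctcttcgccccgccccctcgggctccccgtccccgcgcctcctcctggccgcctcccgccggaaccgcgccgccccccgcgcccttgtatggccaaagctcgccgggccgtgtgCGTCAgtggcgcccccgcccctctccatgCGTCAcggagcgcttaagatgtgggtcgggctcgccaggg
Dusp1 carries TGACG on both strands in the overlapping TGACGTCA, and the Nr4a1 window lies at a start inside the gene's span. Windows of 250 bases before to 50 after the start were on file for 8 of the 10 members, all but Egr1 and Ier2. TGACG was found on either strand in 7 of these 8, against 20.8% of 32851 promoters of the same length. TGACATCA was found in Jun alone of the 8, against 3.62% of all promoters. The CArG box that serum response factor binds, searched by its consensus, was in 0 of the 8 windows, against 1.63%. Bases outside these windows were not searched, so a box farther from the start would have been missed. A match is a description of the letters only.

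Total counts ran from 11.1 to 14.8 M in KO females, from 10.2 to 14.1 M in KO males, from 13.4 to 15.1 M in WT females and from 14.5 to 16.7 M in WT males. Esr2, the targeted gene, had 161, 94 and 128 counts in the libraries labelled KO female, 8, 2 and 95 in KO male, 0, 133 and 159 in WT female and 0, 1 and 14 in WT male. Esr2 therefore did not follow the genotype labels, and the sources used here do not say which part of the gene is deleted. Xist and Y-linked counts went against the titled sex in 4 libraries: KO female 1, KO male 1, KO male 2 and WT female 2. Group names below are the labels of the libraries, and every direction rests on them. Foxp3 was at 583 to 926 CPM over the 12 libraries (counts per 1000000 of the scaled library), and none of the Treg markers Foxp3, Il2ra, Ctla4, Ikzf2, Cd3e and Cd4 was at 0 in any library.

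Per kilobase of merged exon, Junb was the most abundant member at 724 ± 259 CPM per kb (mean ± SD over 12 libraries). Dusp1 (276 ± 122), Fos (211 ± 121) and Ier2 (205 ± 46.2) came next in CPM per kb. Dusp2 (164 ± 29.1), Btg2 (161 ± 41.6) and Jun (159 ± 56.3) differed by far less than their SDs. Nr4a1 (84.7 ± 20.6) and Egr1 (69.6 ± 28.9) were lower, also within an SD of each other. Fosb was lowest at 2.19 ± 1.13 CPM per kb. Neighbours in this order differed by more than the SD of either only for Junb and Dusp1, Jun and Nr4a1, and Egr1 and Fosb.

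Across single libraries, the widest differences set 2 libraries apart. WT female 1 and WT female 2 were both below each of the other 10 libraries in 8 of the 10 members, all but Egr1 and Nr4a1. The same held for 221 of the 13692 genes tested, which is 1.61%. WT female 1 was the lowest library of all in 7 members. These libraries were picked out after their values were seen, so the pattern is a description, with no test. Neither was shallow, at 15.1 and 15.05 M counts. WT female 1 had Xist counts and no Y-linked counts, which matches its title, while WT female 2 is among the 4 libraries against their titled sex.

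Fos, the classic inducible subunit of AP-1, varied most. It had 543, 252 and 511 CPM in KO females, 281, 656 and 326 CPM in KO males, 26.8, 86.9 and 519.6 CPM in WT females and 805, 808 and 522 CPM in WT males. Within WT females the highest library was 19.4 times the lowest, against 2.15 times in KO females, 2.33 times in KO males and 1.55 times in WT males. Among the 163 genes that averaged at least 10 CPM and were lowest in these 2 libraries, Fos had the widest gap: 86.9 CPM in WT female 2, against 252 CPM in KO female 2, the lowest of the other 10.

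Fosb, a Fos relative that can also pair with Jun proteins, was the least abundant member, with as few as 15 counts in WT female 1. Its levels were 10.6, 5.57 and 8.03 CPM in KO females, 10.9, 9.87 and 3.88 CPM in KO males, 1.00, 1.92 and 11.8 CPM in WT females and 9.89, 14.8 and 11.1 CPM in WT males. The same 2 libraries were again lowest, and KO male 3 was next above them.

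Jun, the common AP-1 partner of the Fos proteins, had 503, 436 and 454 CPM in KO females, 539, 506 and 583 CPM in KO males, 139, 233 and 664 CPM in WT females and 761, 693 and 586 CPM in WT males. Outside WT females, libraries of 1 group lay within 1.30 times of each other. Junb, which can restrain Jun at some targets, had 1352, 1049 and 1389 CPM in KO females, 1273, 1252 and 1239 CPM in KO males, 421, 614 and 2057 CPM in WT females and 1812, 1468 and 1785 CPM in WT males. WT female 3 was the highest of all 12 libraries in Junb and WT female 1 the lowest, so the WT female group held both ends of the range.

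Dusp1, which dephosphorylates p38, JNK and ERK in the nucleus, had 736, 569 and 769.6 CPM in KO females, 388, 840.4 and 512 CPM in KO males, 140.2, 249.4 and 805 CPM in WT females and 976, 1100.4 and 777 CPM in WT males. It ranked the libraries much as Fos did. Dusp2, a nuclear phosphatase abundant in lymphocytes, kept to a narrow range of 251 to 311 CPM in KO females, 260.2 to 339 CPM in KO males and 253 to 302 CPM in WT males. WT females had 167, 199.8 and 264 CPM of Dusp2, so the third library lay among the other groups.

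Btg2 had 352, 447 and 391.7 CPM in KO females, 419, 344 and 405 CPM in KO males, 317, 304 and 601 CPM in WT females and 639, 548 and 547 CPM in WT males. WT female 3 thus stood with the WT males, above every KO library. Ier2 had 292, 286 and 299 CPM in KO females, 399, 271 and 354 CPM in KO males, 172, 236 and 332 CPM in WT females and 413, 298 and 388 CPM in WT males. In Btg2 and Ier2 the 2 low libraries were separated from the next one by gaps of 1.09 and 1.15 times only, against 2.90 times in Fos, 1.87 times in Jun, 1.71 times in Junb and 1.56 times in Dusp1.

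**Figure D1:**
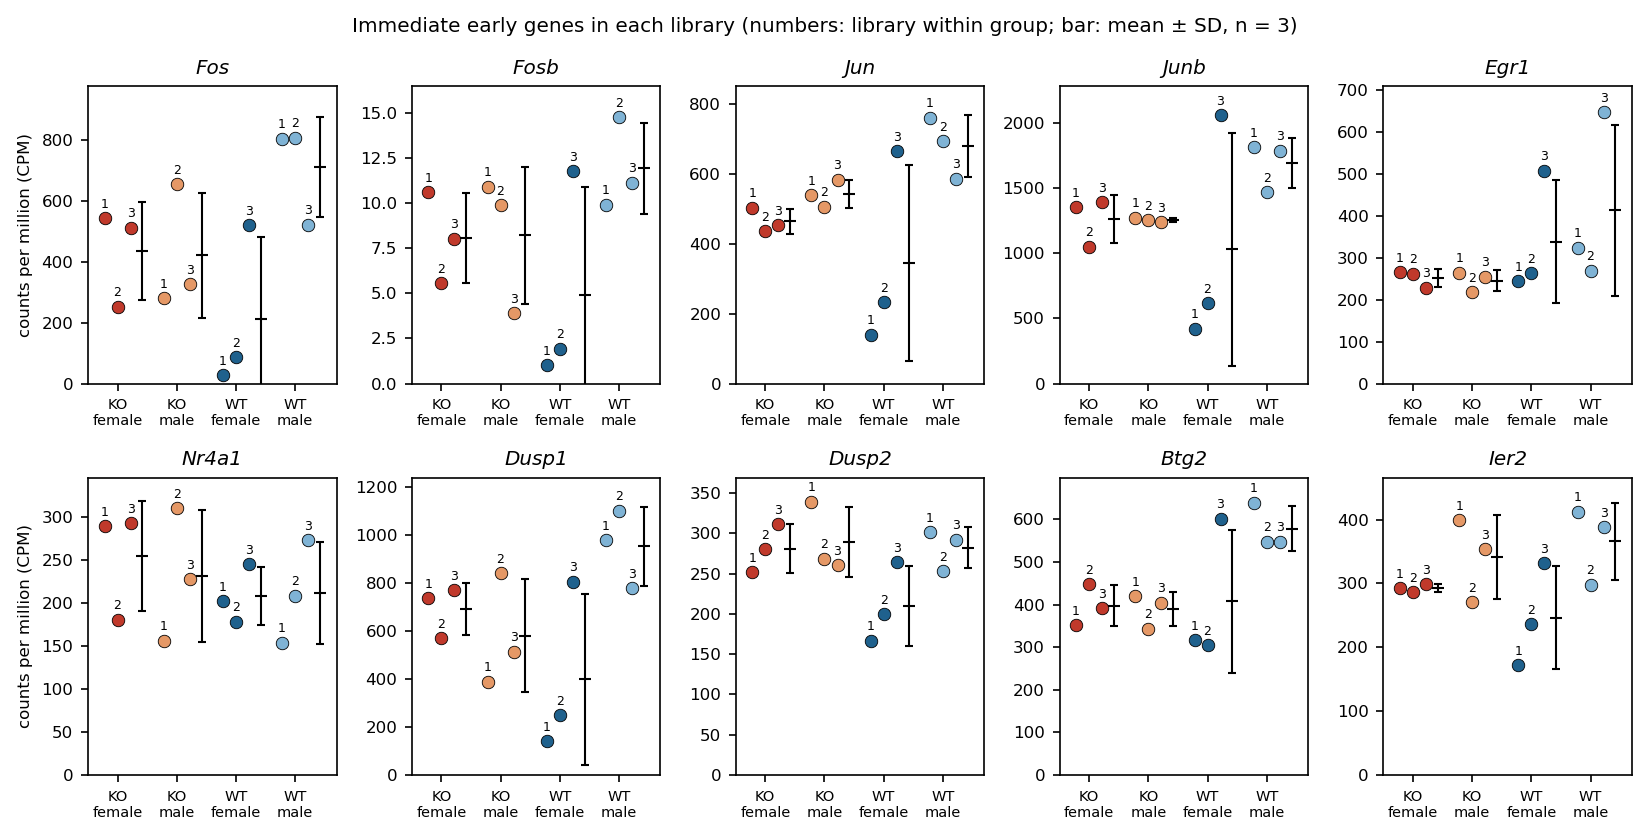
Level of each member in CPM (y axis, linear, from 0) in the 12 libraries, grouped on the x axis as KO female, KO male, WT female and WT male. Points carry the library number, and bars give the mean ± SD of 3 libraries and end at the axis where they would pass 0. WT female 1 and 2 lie below the rest in 8 panels, with 26.8 and 86.9 CPM of Fos, but not in the panels of Egr1 and Nr4a1.

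Egr1 and Nr4a1, the members most often read as TCR signal, had another pattern. Egr1 had 265, 262 and 228 CPM in KO females, 264, 217 and 255 CPM in KO males, 244, 263 and 507 CPM in WT females and 324, 269 and 646 CPM in WT males. WT male 3 and WT female 3 were the 2 highest, and the other 10 libraries lay between 217 and 324 CPM. Nr4a1 had 289.96, 181 and 293 CPM in KO females, 156, 311 and 228 CPM in KO males, 202, 179 and 245 CPM in WT females and 154, 209 and 273 CPM in WT males. All 4 groups overlapped in Nr4a1, and its lowest library was WT male 1.

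The balance between members therefore shifted in WT female 1 and 2. There were 0.13 and 0.49 Fos counts per Nr4a1 count in these libraries, against 1.40 to 5.22 in the other 10. Fos counts per Egr1 count were 0.11 and 0.33 there, against 0.81 to 3.02 elsewhere. Fos counts per Jun count were 0.19 and 0.37, against 0.52 to 1.30. By contrast, Junb counts per Jun count were 3.02 and 2.63 in the same libraries and spanned 2.12 to 3.10 over all 12. Ratios within a library do not depend on its scaling.

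KO libraries also differed among themselves. KO male 2, KO female 1 and KO female 3 were the highest of the 6 KO libraries in Fos, Dusp1 and Nr4a1. They were the lowest of the 6 in Btg2, and KO male 2 and KO female 3 were the lowest in Egr1, while the other 5 members showed neither order. The 3 libraries were picked out after their values were seen. The share of all genes with either order was not counted, so the order is a description and not a trait of the members. These 3 also had the highest summed level of 12 heat shock genes, which respond to proteotoxic stress, among the KO libraries, at 4702, 4251 and 4316 CPM against 2330 CPM in KO male 1, 1958 CPM in KO male 3 and 2759 CPM in KO female 2. Ikzf2, a Treg transcription factor, was at 124, 131 and 98.5 CPM in the same 3 libraries, and at 445 CPM in KO male 1, 476 CPM in KO male 3 and 386 CPM in KO female 2. Sums of all Treg markers, Ikzf2 included, did not set these libraries apart. They were 4026 CPM in KO male 2, 4023 CPM in KO female 1 and 3728 CPM in KO female 3. The other 3 KO libraries had 3987 CPM (KO male 1), 4394 CPM (KO male 3) and 3773 CPM (KO female 2). More genes had a count in KO male 2, KO female 1 and KO female 3, 18793 to 21186, against 15042 to 18567 in the other 3 KO libraries. The part of these values in the levels of Fos was not tested.

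Over all 12 libraries, 28 of the 45 pairs of members correlated in log2 CPM (permutation test of Pearson's r with 100000 resamples, Benjamini-Hochberg adjusted over the 45 pairs) and 22 did by Spearman's rho. Leaving out the 2 libraries farthest from the median of the first gene left 1 pair, so the relation rests on those libraries, and no pooled r is given. Over the 10 libraries other than WT female 1 and 2, Pearson's r passed for 1 of 45 pairs and rho for 0. That pair was Fos and Dusp1, with r = 0.92 (adjusted permutation p = 0.00675) and rho = 0.88 (adjusted permutation p = 0.0769), and r was 0.97 without the 2 libraries farthest in Fos. The other pairs ranged from r = -0.56 for Nr4a1 with Ier2 upward, and the median of the 45 was 0.34. Jun with Btg2 reached r = 0.79 and rho = 0.75 and Junb with Egr1 r = 0.77 and rho = 0.77, both at an adjusted permutation p of 0.135 for r and 0.178 for rho, and Fos with Nr4a1 reached r = 0.28 and rho = 0.15 (adjusted permutation p = 0.604 and 0.856).

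The genes whose levels were most like the members' mean standardised level, by Pearson's r over the 12 libraries, were Ppp1r15a (r = 0.97), Zfp36 (0.95), Rgs2 (0.93), Frat2 (0.91), Eif1 (0.89), Irs2 (0.87), Cebpb (0.87), Gem (0.85), Gadd45b (0.81) and Arl5c (0.81). WT female 1 was the lowest library in all 10, so these r share that library. Over the other 10 libraries r fell to 0.77 for Ppp1r15a and 0.29 for Irs2 and stayed at 0.84 for Gem. Ppp1r15a, a stress-induced regulator of translation initiation, had 502, 355 and 497 CPM in KO females, 258, 442 and 348 CPM in KO males, 85.1, 136 and 707 CPM in WT females and 558, 501 and 645 CPM in WT males. WT female 1 and 2 were the lowest libraries, as in Fos, and WT female 3 was the highest, unlike in Fos. Zfp36, whose protein destabilises AU-rich mRNAs including cytokine and early gene messages, had 383, 359 and 329 CPM in KO females, 437, 308 and 330.03 CPM in KO males, 158, 193 and 459.7 CPM in WT females and 384, 435 and 492 CPM in WT males.

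The pattern of WT female 1 and 2 was also counted in other gene lists. Of 29 tested members of a list of other immediate early genes, 9 (31%) were below all other libraries in both: Nr4a2, Klf2, Klf4, Klf6, Zfp36, Gadd45b, Ppp1r15a, Cxcr4 and Rgs2. Of 23 TCR-responsive genes it was 2 (8.7%), the early surface marker Cd69 and Tnfrsf18 (GITR). None of 8 ERK phosphatases and feedback inhibitors, 24 upstream kinases and transcription factors and 12 heat shock genes had that pattern, against the same 1.61% of all genes. At that share, lists this small would mostly hold 0 such genes, so these counts set no limit to the pattern. The TCR-responsive list summed to 4642 CPM in WT female 1 and 4350.4 CPM in WT female 2, against 4356 to 5439 CPM in the other 10. The heat shock list summed to 3400.05 and 2850 CPM in these libraries, inside the 1958 to 4702 CPM of the rest. Treg markers summed to 3514 and 3775 CPM, inside the 3016 to 4394 CPM of the rest. Whether TCR signalling or handling during the sort took part in the low levels was not tested.

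**Figure D2:**
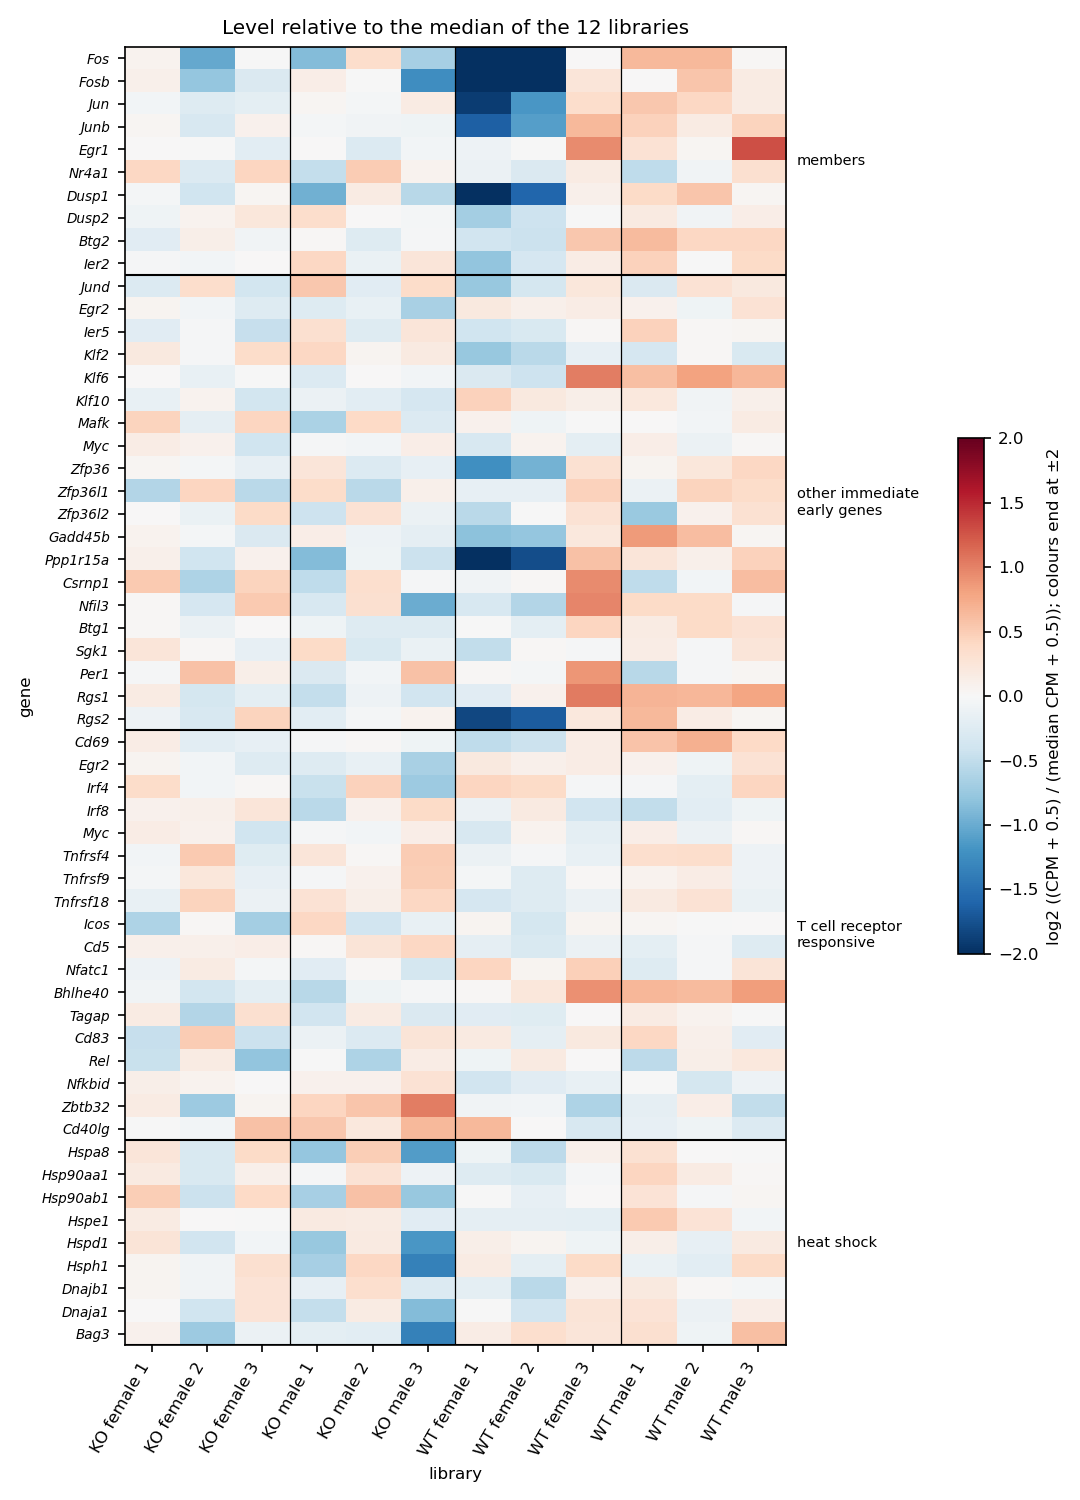
Log2 of each gene's CPM over its median of the 12 libraries, with 0.5 added to both (colour, ending at ±2), for the members and the genes averaging at least 10 CPM of 3 other lists (rows) in the 12 libraries (columns). The blue cells of WT female 1 and 2 run through most members and through Zfp36, Gadd45b, Ppp1r15a and Rgs2, and the heat shock block shows no such columns.

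Summed macrophage and B cell markers were higher in WT female 1 and 2 than in the other WT libraries, as they were in the KO libraries. Macrophage and monocyte markers (Lyz2, Csf1r, Cd68, C1qa, C1qb and Adgre1) summed to 131 to 351 CPM in the 6 KO libraries, to 297 CPM in WT female 1 and 275 CPM in WT female 2, and to 37.0 CPM in WT female 3 and 18.3 to 42.5 CPM in WT males. B cell markers summed to 144.5 to 332 CPM in KO libraries, to 174 and 108 CPM in WT female 1 and 2, and to 57.6 CPM in WT female 3 and 38.0 to 61.6 CPM in WT males. Dendritic cell markers summed to 22.6 and 20.4 CPM in WT female 1 and 2, against 4.14 to 20.9 CPM in the other 10. CD8 and NK cell markers summed to 122 and 117 CPM, inside the 76.1 to 169 CPM of the other 10. Plasma cell, neutrophil and stromal marker sums were also inside the range of the other 10. Of the macrophage markers, Adgre1 was at 0 in 1 library, and none of the 5 B cell markers was at 0 in any. In bulk RNA, fewer cells of a type and less RNA per cell cannot be told apart, and the part of these cells in the members' levels was not tested.

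**Figure D3:**
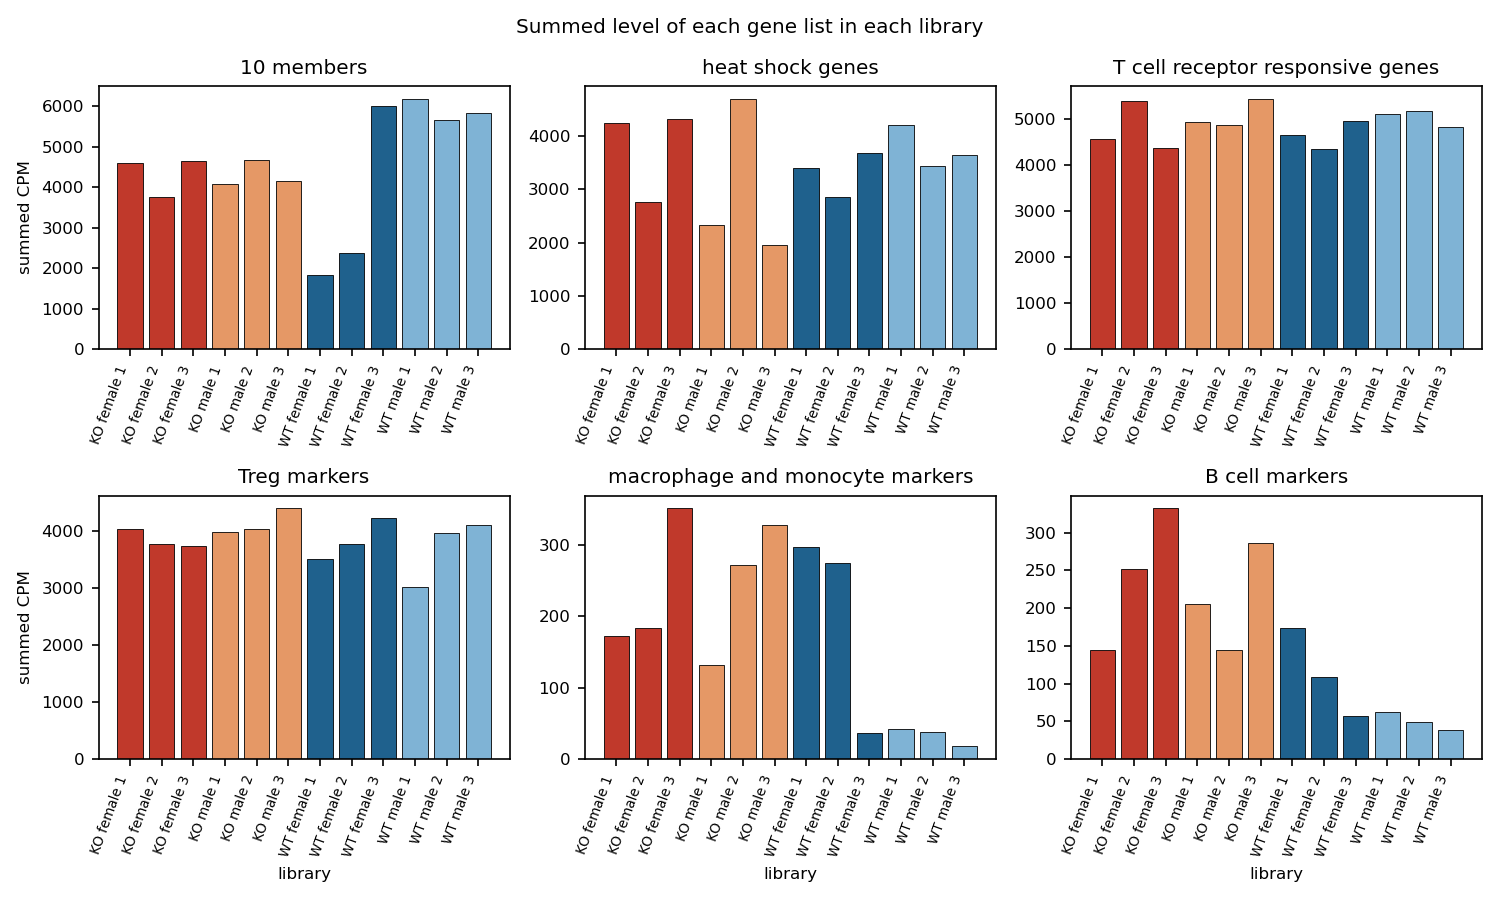
Summed CPM (y axis, from 0) of 6 gene lists in each of the 12 libraries (x axis, coloured by group). The 10 members sum to 1831 and 2367 CPM in WT female 1 and 2, and to between 3769 and 6195 CPM in the other libraries, while the TCR-responsive sums stay within 4350.4 to 5439 CPM.

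The first comparison asks whether the members differ between libraries labelled KO and WT, as a mean of both sexes. With edgeR's quasi-likelihood test and Benjamini-Hochberg adjustment over all genes, 0 of the 10 members passed 0.05, against 1.5% of all genes tested. With DESeq2, 0 passed against 4.71% of all genes there. In the edgeR fit, 1 member, Egr1, had an unadjusted p under 0.05. Without the filter on low counts, edgeR called Egr1 alone of the members, against 2.55% of all genes in that fit. Egr1 averaged 252 ± 20.4 CPM in KO females and 245 ± 24.7 CPM in KO males, against 338 ± 147 CPM in WT females and 413 ± 204 CPM in WT males (SD, n = 3 each). Its log2 fold change, KO minus WT, was -0.59 (SE 0.22, edgeR adjusted p = 0.189). Btg2 followed with -0.30 (SE 0.16, edgeR adjusted p = 0.374). Egr1 was at -0.35 without WT male 3, and Btg2 at -0.11 without WT female 3. Fos had 0.14 with a 95% interval from -1.16 to 1.44, wide enough to hold a change of either sign. The median of the members was 0.06, against 0.02 for all genes, with 7 positive and 3 negative. Without WT female 1 and 2, which was chosen after seeing the data, 8 of 10 were negative and the median was -0.50, and again 0 passed. Without the 4 libraries against their titled sex, 7 were negative, the median was -0.23 and 0 passed.

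In males, 8 of 10 members were negative, with a median log2 fold change, KO minus WT, of -0.48 against 0.01 for all genes. WT female 1 and 2 are not among the libraries compared here. They still enter the spread that all groups share in the fit, and so the SEs, intervals and p-values. None passed in edgeR, against 0.073% of all genes, or in DESeq2, against 3.13% of all genes there. An unadjusted edgeR p under 0.05 was found for 2. Without the filter on low counts, 3 passed (Fos, Egr1 and Dusp1), against 1.8% of all genes in that fit. With the filter, the 2 at an unadjusted p under 0.05 were Egr1 at -0.75 (SE 0.30, edgeR adjusted p = 0.282) and Btg2 at -0.57 (SE 0.22, edgeR adjusted p = 0.272). Egr1 depended on WT male 3: without it, its fold change was -0.27. The libraries of the 2 groups did not overlap in Jun, Junb, Egr1 and Btg2, all lower in KO males, and 14.4% of all genes had groups without overlap in this comparison. For Btg2 that was 344 to 419 CPM in KO males against 547 to 639 CPM in WT males. Fos, at -0.76 (95% interval -2.60 to 1.09), and Dusp1, at -0.71 (95% interval -1.68 to 0.26), overlapped because KO male 2 lay among the WT males. Without the 4 libraries against their titled sex, which leaves KO males with 1 library assumed to vary like the others, 9 were negative and 0 passed.

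In females, 8 of 10 members were positive, with a median log2 fold change, KO minus WT, of 0.36 against 0.01 for all genes. All 10 had overlapping groups, since WT female 3 was among or above the KO females, and 21% of all genes had groups without overlap. None passed in edgeR, as for 0% of all genes, or in DESeq2, against 0.161% of all genes there. Dusp2, at 0.42 (SE 0.18, edgeR adjusted p = 0.627), alone had an unadjusted edgeR p under 0.05. Fos had 1.05 (SE 0.84, edgeR adjusted p = 0.811) and Dusp1 0.80 (SE 0.46, edgeR adjusted p = 0.719). These 2 genes passed without the filter on low counts, against 0.537% of all genes in that fit. The sign rests on WT female 1 and 2: without both, 8 of 10 were negative against the 1 remaining WT female library, with a median of -0.42. Junb then had -0.74 and Jun -0.55, both the reverse of 0.29 and 0.43 with all libraries. Leaving out the 4 libraries against their titled sex kept 7 positive, with a median of 0.11 and 0 calls.

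**Figure D4:**
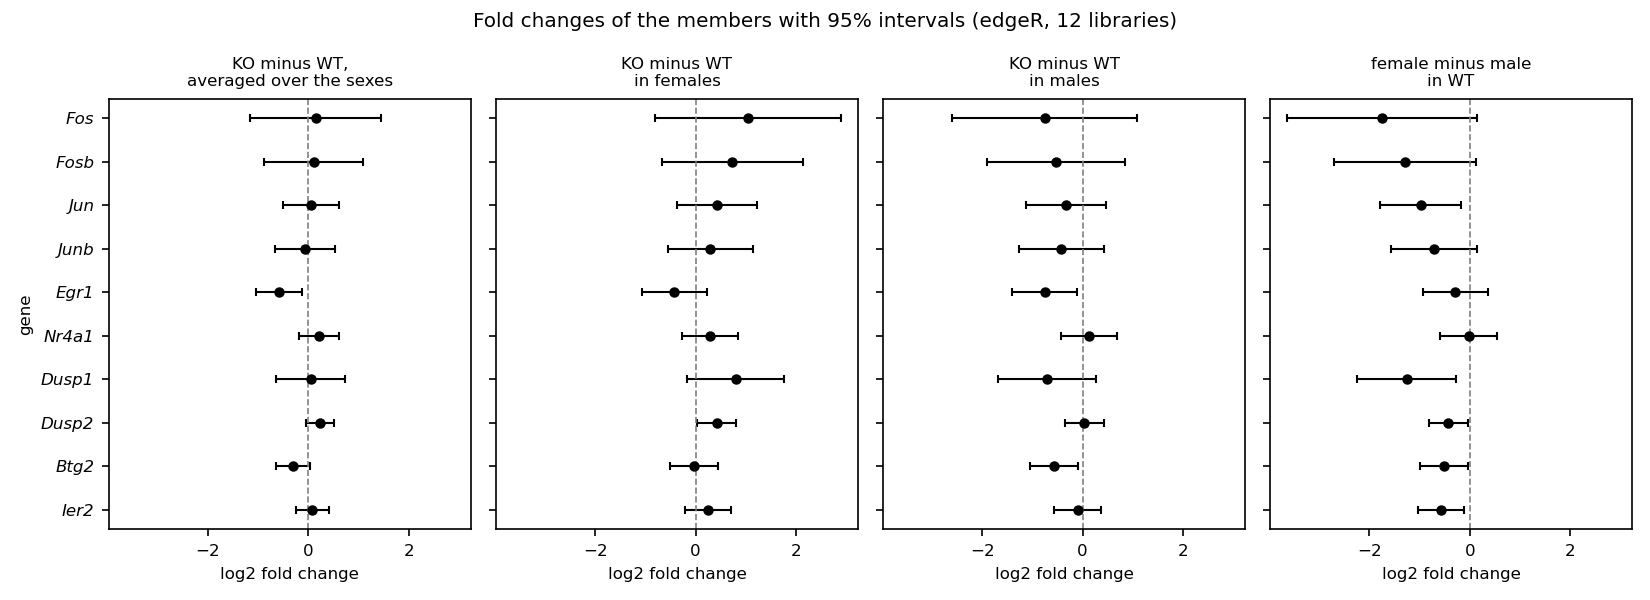
Log2 fold changes (x axis) of the members (y axis) with 95% intervals from the edgeR fit to 12 libraries, for KO minus WT as a mean of both sexes, then females, then males, and for WT female minus WT male. Intervals of Fos are the widest, and the 10 estimates for female minus male in WT are all below 0.

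Between the sexes in WT, all 10 members had negative estimates in the libraries labelled female, with a median log2 fold change, female minus male, of -0.64 against 0.01 for all genes. None passed in edgeR, as for 0% of all genes, or in DESeq2, against 0.219% of all genes there. There were 5 members with an unadjusted edgeR p under 0.05. These were Dusp1 at -1.26 (SE 0.46), Ier2 at -0.57 (SE 0.22), Jun at -0.98 (SE 0.38), Dusp2 at -0.43 (SE 0.18) and Btg2 at -0.51 (SE 0.22), each with an edgeR adjusted p of 0.718. Fos had -1.75 (SE 0.85) and was the one member without overlap, with 15.7% of all genes likewise. Its margin was slight, with 519.6 CPM in WT female 3 against 522.4 CPM in WT male 3. In the fit without the filter on low counts, Fos, Jun and Dusp1 passed, against 0.777% of all genes. The call turns on WT female 3: without it, 5 members passed in edgeR, against 0.265% of all genes in that fit, with log2 fold changes of -3.65 for Fos (adjusted p = 0.00934), -3.03 for Fosb (adjusted p = 0.0330), -1.87 for Jun and -1.71 for Junb (both adjusted p = 0.00338) and -2.29 for Dusp1 (adjusted p = 0.00934). That fit compares WT female 1 and 2, picked out above as low after their values were seen, with WT males. Its p-values are therefore no separate support for a difference between the sexes, and WT female 2 is against its titled sex. Without WT female 1 and 2, the median was -0.0030 and 5 of 10 were negative. With the 4 libraries against their titled sex left out, 9 were negative, the median was -0.48 and 0 passed.

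In KO libraries, female minus male fold changes were small, from -0.23 for Jun to 0.25 for Dusp1, with a median of 0.02. None of the members passed in edgeR or DESeq2, as for 0% of all genes, and 0 had an unadjusted edgeR p under 0.05. Without the filter on low counts 0 passed too, against 0.256% of all genes. Jun did not overlap, with 436 to 503 CPM in KO females against 506 to 583 CPM in KO males, and 7% of all genes had groups without overlap. The interaction, the KO minus WT change in females minus that in males, was positive in all 10, with a median of 0.63, but 0 passed in edgeR (0% of all genes) or in DESeq2 (0.0219% of all genes there). Dusp1 alone had an unadjusted edgeR p under 0.05, at 1.51 (SE 0.64, edgeR adjusted p = 0.900). Fos and Dusp1 passed without the filter on low counts, against 0.431% of all genes in that fit. Without WT female 1 and 2, the interaction was negative in 7 of 10, with a median of -0.08. Without the 4 libraries against their titled sex, it was positive in 9 with a median of 0.42, the KO sex difference had a median of 0.08, and 0 members passed in either.

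Other genes of the pathway were counted in KO minus WT as a mean of both sexes, where edgeR called 206 of all 13692 genes tested (1.5%). Of 29 other immediate early genes tested, 0 rose and 1 fell, Rgs1, which shortens G protein signals at chemokine receptors. It had 477, 333 and 371 CPM in KO females, 308, 399 and 328 CPM in KO males, 364, 454 and 879 CPM in WT females and 687, 675 and 740.2 CPM in WT males (log2 fold change -0.77, SE 0.18, edgeR adjusted p = 0.0497). WT female 1 and 2 overlapped the KO libraries. Of 23 TCR-responsive genes, 4 of which (Egr2, Egr3, Myc and Nr4a3) are also in the first list, 0 rose and 1 fell. This was Bhlhe40, a transcriptional repressor of activated T cells, with 89.5 to 111 CPM in KO females, 78.6 to 115 CPM in KO males, 117 to 219.99 CPM in WT females and 180.3 to 209 CPM in WT males (-0.79, SE 0.15, edgeR adjusted p = 0.0275). KO and WT libraries did not overlap in Bhlhe40, as in 2.4% of all genes. The margin was slight, with 114.7 CPM in the highest KO male library against 117.5 CPM in the lowest WT female library. Its log2 fold change was -0.63 without WT female 3 and -0.88 without WT female 1.

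Of 24 upstream kinases and transcription factors, 0 rose and 2 fell, Creb1 and Atf2, against the same 1.5% of all genes called. Creb1 had 62.1 to 73.5 CPM in KO females, 51.8 to 70.9 CPM in KO males, 95.9 to 129.9 CPM in WT females and 77.9 to 128 CPM in WT males (log2 fold change -0.68, SE 0.14, edgeR adjusted p = 0.0329). Atf2 had 62.0 to 74.8 CPM in KO females, 67.1 to 79.99 CPM in KO males, 92.6 to 105 CPM in WT females and 91.4 to 116 CPM in WT males (-0.49, SE 0.11, edgeR adjusted p = 0.0380). Neither was low in WT female 1 or 2, where Creb1 had 108 and 95.9 CPM. These 4 calls are fragile: over 21 alternatives, Rgs1 kept its call in 6, Bhlhe40 in 12, Creb1 in 9 and Atf2 in 8, with the sign negative in each. The lists of 8 ERK phosphatases and feedback inhibitors and of 12 heat shock genes had 0 calls in either direction. The smallest p in them belonged to the ERK phosphatase Dusp6, at -0.34 (edgeR adjusted p = 0.210), and the co-chaperone Bag3, at -0.65 (edgeR adjusted p = 0.158). List medians were 0.04, 0.06, -0.19, -0.09 and -0.03 for the other immediate early, TCR-responsive, upstream, ERK feedback and heat shock lists, against 0.02 for all genes.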

How the data were processed

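RNA-seq was analysed for sorted Tregs in 12 libraries, with groups taken from the sample titles. SMART-Seq v4 cDNA was turned into Nextera XT libraries, per the labels' protocols, which leaves the strand unmarked. The authors deposited raw counts for 26609 genes and log2 values for 24584 genes. The build GRCm38 and the tools edgeR, Subread, featureCounts 1.5.0-p2 and HISAT2 2.0.5 are named per the submitters' processing notes; no annotation release or strand setting is stated there. The deposited log2 values equal log2 CPM after TMM scaling with a prior count of 0.25, recomputed from the counts to within 5e-14.

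Counts were filtered by filterByExpr, which kept 13692 genes and at least 99.81% of each library's counts, scaled by TMM and fitted as 4 group means in 1 robust edgeR quasi-likelihood model (R 4.3.3, edgeR 4.0.16). Tests were two-sided, with Benjamini-Hochberg adjustment over all genes tested and a threshold of 0.05. The common coefficient of variation was 29.3%. CPM use the scaled library sizes, and log2 CPM for correlations have a prior count of 2. Lengths are merged exons of GENCODE M21, and gene starts and promoters are from RefSeq GRCm38.p6. No other RefSeq gene overlaps a member. On simulated counts for KO minus WT as a mean of both sexes, with 13692 genes, 70 of 100 genes changed 2-fold and 100 of 100 changed 4-fold were recovered, and 7 unchanged genes were called. Every gene was simulated at the common 29.3%, while Fos had a coefficient of variation of 127% within WT females. The recovery therefore does not carry over to members that vary more.

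Members and gene lists were chosen with earlier results of these data known. Named genes were the members, passing genes of each list (otherwise its 2 smallest p) and the 10 genes most like the members. Alternatives were other scalings, DESeq2 1.42.0, limma-trend (limma 3.58.1) on the deposited log2 values, no filter, the title number as a block, left-out libraries, and WT male 2 and 3 summed. The number 2 stands on both of those titles, but their counts differed by 36.5 chi-square per degree of freedom, within the 9.53 to 82.9 of other pairs of 1 group, so they were kept apart. The title numbers were not taken to pair libraries.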

Additional observations from a re-analysis of the deposited data

How the results depend on the processing

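The 10 members gave 0 calls in all 6 comparisons under DESeq2, limma-trend, both other scalings, the sum of WT male 2 and 3, the title-number block, and without the 4 libraries against their titled sex or WT female 1 and 2. Without the low-count filter, edgeR called 1 member for KO minus WT as a mean of both sexes (Egr1, -0.60, adjusted p = 0.00203; 2.55% of all genes), 3 in males (Fos, Egr1 and Dusp1; 1.8%), 2 in females (Fos and Dusp1; 0.537%), 3 for female minus male in WT (Fos, Jun and Dusp1; 0.777%) and 2 for the interaction (Fos and Dusp1; 0.431%). The cause was not tested. Leaving out 1 library gave 0 to 5 calls for female minus male in WT, the 5 without WT female 3, and 0 in the other 5 comparisons. The count of correlated pairs, 28 over 12 libraries, was 1 less the 2 farthest libraries, 1 over the other 10, 22 on deviations from group means (1 by Spearman's rho, against 22 by rho without centring) and 28 with a prior count of 0.25.

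Signs turned without WT female 1 and 2 for KO minus WT as a mean of both sexes in Jun (-0.44) and Dusp1 (-0.48), in females in Jun (-0.55) and Junb (-0.74), and for female minus male in WT in Btg2 (0.077), and without WT female 3 for the mean of both sexes in Junb (0.43, against -0.27 without WT female 1); the cause was not tested. Only signs with an unadjusted p under 0.05 in either fit are counted as turned. Counting every sign, 23 of 64 fold changes (60 of members and 4 of passing list genes) changed without WT female 1 and 2, 11 without the 4 libraries against their titled sex, and 0 with DESeq2. Libraries with the same title number had deviations correlating at -0.73 to 0.34 (18 pairs), against -0.48 to 0.65 for other numbers (36 pairs). These ranges overlap and the labels do not say what the numbers mark, so whether the numbers pair libraries is not settled. As a replicate block, the title numbers gave 0 member calls, changed 4 of 64 signs and took the calls among all genes to 9, against 206 without it. Over the alternatives, calls among all genes ran from 9 to 644 for the mean of both sexes (lowest with the block, highest with DESeq2), 0 to 734 in males, 0 to 132 in females, 0 to 191 for female minus male in WT, 0 to 324 in KO and 0 to 106 for the interaction. The lowest count of a member was 15, in Fosb, so counting error bears on Fosb most.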
